A study of Bos taurus with 39 samples.

Results

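CD79A, CD79B, POU2AF1, JCHAIN, MZB1 and DERL3 were grouped by name as B and plasma cell genes, with PIGR, the epithelial receptor that carries antibody into milk. They were taken by symbol from the deposited expression table, 7 of its 21590 genes. The table holds transcript levels in milk somatic cells (cells that leave the gland with the milk) of 39 Holstein dairy cows. The cows had been ranked by feed efficiency, and 22 were labelled LOW RFI and 17 HIGH RFI, with RFI taken as residual feed intake. Milk was drawn through a cannula, RNA was extracted with Trizol and each cow gave 1 TruSeq library. No treatment, age or stage of lactation is given in the sources used here, and all cows share the breed and the tissue. The question of the series is which transcripts differ between the 2 extremes. A level below is in RPKM (reads scaled by gene length and by the mapped reads of the library), and a difference is LOW RFI minus HIGH RFI on the log2(RPKM + 1) scale.

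B cells read antigen through a surface antibody that signals by a pair of chains, CD79A and CD79B. After activation some become plasma cells, which fold and secrete antibody in bulk, and plasma cells of mucosae and glands add the J chain that joins antibody units into polymers. In the mammary gland the polymeric immunoglobulin receptor, PIGR, takes such polymers up at the base of epithelial cells, crosses the cell with them and is cut at the milk side, which releases them as secretory antibody.

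The libraries held 41637742 to 204905052 mapped reads, with a median of 89545831, of which 80.9% to 96.5% fell in genes. At these depths a median of 13920 reads lay behind PIGR, 473 behind CD79A, 273 behind DERL3, 114 behind JCHAIN, 111 behind CD79B and 102 behind POU2AF1. MZB1 had a median of 7 reads, and fewer than 10 in 22 cows, so its level is the least precise. Genes entered the comparison when at least 1 RPKM was reached in at least 17 cows, which 10636 genes did. CD79A, CD79B, JCHAIN, DERL3 and PIGR were among them. POU2AF1 reached 1 RPKM in 13 cows and MZB1 in 2, and both were fitted among the 13638 genes that reached 0.1 RPKM in 17 cows.

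The 7 genes spanned a wide range of levels per gene length. Over all cows the means fell in the order PIGR (44.3 RPKM), DERL3 (4.11), CD79A (2.77), CD79B (1.80), JCHAIN (1.42), POU2AF1 (0.865) and MZB1 (0.217). PIGR lay above DERL3 in 34 of 39 cows, DERL3 above CD79A in 29, CD79A above CD79B in 31, JCHAIN above POU2AF1 in 32 and POU2AF1 above MZB1 in 31. CD79B and JCHAIN did not keep an order, since CD79B was the higher in 16 of the 39 cows. Their SDs over the 39 cows, 2.31 RPKM for CD79B and 1.61 RPKM for JCHAIN, exceed the gap between their means.

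The labels of the genes were set against markers of the cells they stand for. Among B cell surface genes MS4A1 (CD20) was present at a low level, a mean of 1.08 RPKM over the cows. TNFRSF17, the survival receptor that marks plasma cells, was near 0, at 0.0322 RPKM, and TNFRSF13B of the same list was at 0.114 RPKM. Other genes of that list were higher, among them SLAMF7 (42.6 RPKM), PRDM1 (7.79), CD27 (7.51), SDC1 (7.07), IRF4 (4.96) and CD38 (2.92). Which cells made them was not tested. XBP1, the transcription factor of secretory cells, had 165 RPKM, and it is made by many cell types besides plasma cells. None of the 11 immunoglobulin chain symbols looked for matched a row by name, so antibody transcripts themselves are not analysed here. RNA from bulk cells cannot tell fewer cells of a type from less RNA per cell.

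**Figure D1:**
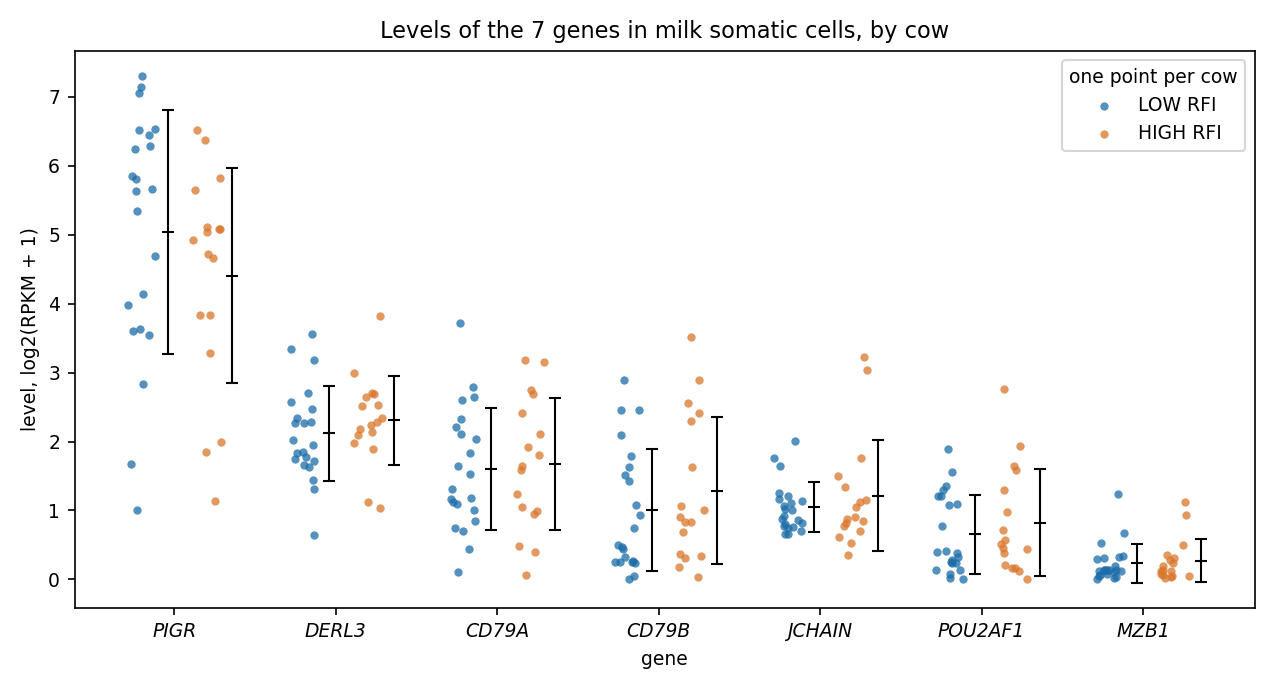
Level of each gene on the log2(RPKM + 1) axis, 1 point per cow, LOW RFI (blue, n = 22) left of HIGH RFI (orange, n = 17), with the mean and SD as a black bar beside each group. PIGR stands above the other genes in both groups, and the 2 groups overlap for every gene, with HIGH RFI 6 and HIGH RFI 9 standing apart for JCHAIN at 8.38 and 7.17 RPKM.

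None of the 7 genes passed the group comparison, and for each of them the LOW RFI and HIGH RFI ranges overlapped. In the fit over all genes, 0 of the 5 members tested passed an adjusted p of 0.05 (limma-trend, two-sided, Benjamini-Hochberg), against 0.0% of the 10636 genes. At an unadjusted p under 0.05 it was again 0 of 5, against 5.95% of all genes (633 genes). CD79A, CD79B, JCHAIN and DERL3 had a negative difference and PIGR a positive one, where 73.0% of all genes had a negative difference (46.9% after quantile normalization). The median difference over all genes was -0.12 as deposited and 0.017 after quantile normalization, so differences near that size move with the scaling. In the wider fit MZB1 and POU2AF1 did not pass either, against 0.0% called and 7.42% at an unadjusted p under 0.05 of 13638 genes, and both had a negative difference, as did 70.5% of those genes. With limma-voom and quality weights, which called 18.5% of the 10636 genes, no member was called.

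The 2 chains of the B cell receptor signalling unit come first. CD79A, the Ig-alpha chain, had a lowest, median and highest level of 0.0800, 1.68 and 12.1 RPKM in LOW RFI cows, against 0.0405, 2.14 and 8.04 RPKM in HIGH RFI cows. Cows of both groups filled the same range, and the HIGH RFI median exceeded 13 of the 22 LOW RFI cows. Its difference was -0.073 with an SE of 0.28 (95% interval -0.65 to 0.50, limma p = 0.798, adjusted p = 0.938), and it was 0.090 with quantile normalization, 0.021 without HIGH RFI 6 and 0.019 without HIGH RFI 9. CD79B, the Ig-beta chain, had 0.00794, 0.543 and 6.43 RPKM in LOW RFI cows, against 0.0232, 0.881 and 10.4 RPKM in HIGH RFI cows. The highest value of either group for CD79B was that of HIGH RFI 6. The CD79B difference was -0.28 with an SE of 0.30 (95% interval -0.89 to 0.32, limma p = 0.349, adjusted p = 0.795). Without HIGH RFI 6 it was -0.14.

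POU2AF1, the B cell coactivator of octamer transcription factors, had 0.00415, 0.306 and 2.69 RPKM in LOW RFI cows, against 0, 0.434 and 5.78 RPKM in HIGH RFI cows. HIGH RFI 6 again stood highest, and the library of HIGH RFI 17 held no read of it, which allows up to 3 reads or 0.0179 RPKM. The difference of POU2AF1 was -0.17 with an SE of 0.21 (95% interval -0.59 to 0.25, limma p = 0.415, adjusted p = 0.793). Without HIGH RFI 6 the POU2AF1 difference was -0.048.

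JCHAIN, the joining chain of polymeric antibody, had 0.571, 0.951 and 3.02 RPKM in LOW RFI cows, against 0.273, 0.876 and 8.38 RPKM in HIGH RFI cows. Only HIGH RFI 6 and HIGH RFI 9, both tagged Feb20, lay above the highest LOW RFI cow, and the medians of the groups were close. The mean in HIGH RFI cows, 1.80 ± 2.32 RPKM (SD, n = 17), stood beside 1.13 ± 0.629 RPKM in LOW RFI cows (SD, n = 22). The JCHAIN difference was -0.17 with an SE of 0.19 (95% interval -0.55 to 0.21, limma p = 0.377, adjusted p = 0.799). It was -0.041 without HIGH RFI 6.

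MZB1, an endoplasmic reticulum helper of antibody assembly, had 0, 0.0959 and 1.37 RPKM in LOW RFI cows, against 0.0140, 0.0993 and 1.17 RPKM in HIGH RFI cows. LOW RFI 15, HIGH RFI 9 and HIGH RFI 6 held its highest levels, and LOW RFI 18 had no read, which allows up to 0.0490 RPKM. Its difference was -0.035 with an SE of 0.092 (95% interval -0.22 to 0.15, limma p = 0.702, adjusted p = 0.903), and it was 0.0070 with quantile normalization, 0.0059 without HIGH RFI 6 and 0.017 without HIGH RFI 9.

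DERL3, a channel component that helps misfolded proteins out of the endoplasmic reticulum, had 0.557, 2.97 and 10.8 RPKM in LOW RFI cows, against 1.04, 3.86 and 13.1 RPKM in HIGH RFI cows. Here the HIGH RFI median exceeded 15 of the 22 LOW RFI cows, the most of the 7 genes. The DERL3 difference was -0.19 with an SE of 0.21 (95% interval -0.62 to 0.24, limma p = 0.382, adjusted p = 0.801). It was -0.52 (SE 0.29) with early tags alone (Sep19 to Dec19), -0.012 with the milk protein score as a covariate and -0.046 with the 8 libraries left out that have a mark right after the animal number in their column name.

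PIGR had 1.01, 49.2 and 156.7 RPKM in LOW RFI cows, against 1.21, 29.5 and 90.9 RPKM in HIGH RFI cows. Both groups reached down to about 1 RPKM, and the HIGH RFI median exceeded 9 of the 22 LOW RFI cows. Its difference was 0.63 with an SE of 0.52 (95% interval -0.41 to 1.68, limma p = 0.227, adjusted p = 0.770), larger than for the other 6 genes but within the spread between cows. With the milk protein score as a covariate the PIGR difference was 0.015 (SE 0.19). With the 8 libraries left out that have a mark right after the animal number in their column name it was 0.14, and with early tags alone (Sep19 to Dec19) it was 1.46 (SE 0.93).

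**Figure D2:**
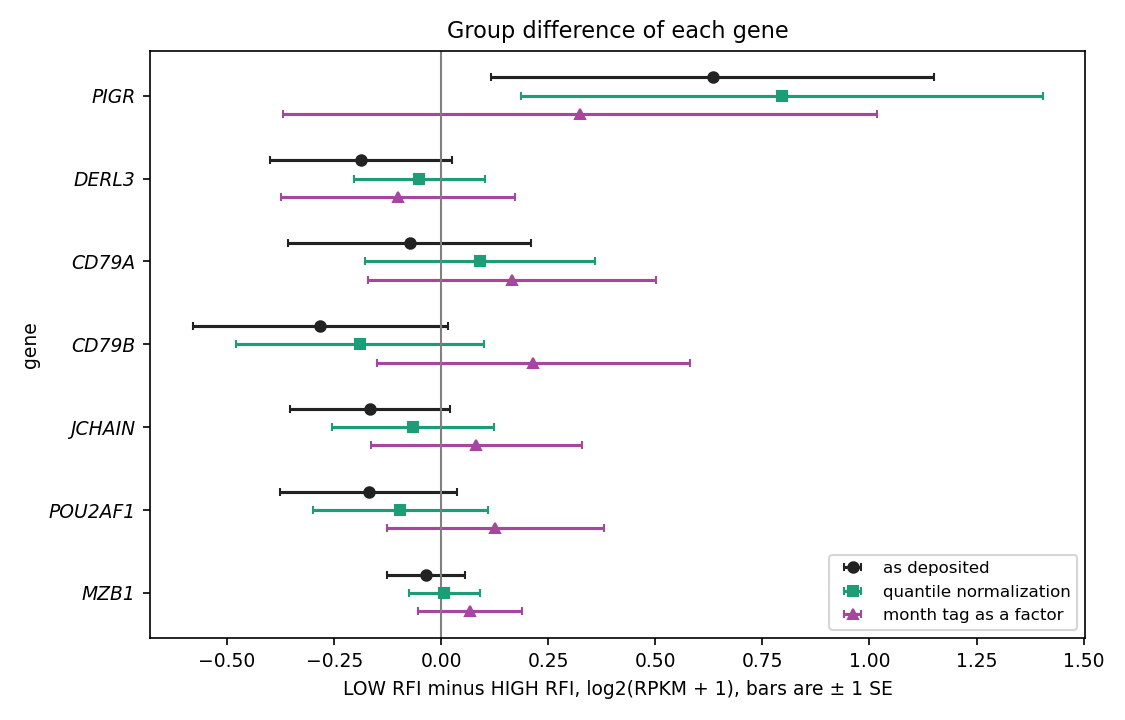
LOW RFI minus HIGH RFI difference of each gene on the log2(RPKM + 1) scale with 1 SE to either side, from the deposited values (black circles), after quantile normalization (green squares) and with the month tag in the model (purple triangles). PIGR is positive under all 3 and DERL3 negative under all 3, while CD79A, CD79B, JCHAIN, POU2AF1 and MZB1 have a positive difference once the month tag is in the model.

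Each column name carries a tag for a month, from Sep19 to Jun20, and the groups are spread unevenly over these tags. The 6 cows tagged Feb20 were HIGH RFI without exception, while Oct19 was held by 2 LOW RFI cows alone. With the month as a factor the differences of CD79B, CD79A, POU2AF1, JCHAIN and MZB1 were 0.22, 0.16, 0.13, 0.082 and 0.067, and that of PIGR was 0.32. In the same fit 51.6% of all genes had a negative difference. How far month and group each account for the differences cannot be told apart for tags that hold 1 group. None of the 5 tested members passed a test for month (limma F test, unadjusted p 0.105 for CD79A to 0.853 for PIGR), against 0.0% of all genes called and 3.14% at an unadjusted p under 0.05.

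Within single months the groups are small. Under the Sep19 tag the 4 LOW RFI cows had PIGR levels of 156.7, 91.3, 39.7 and 6.10 RPKM, against 2.61 and 2.97 RPKM in the 2 HIGH RFI cows. The groups did not overlap there, with a difference of 3.58 (exact permutation p = 0.133, two-sided), where 6 cows cannot give less than 0.0667. How many of all genes also kept the groups apart under this tag was not counted. Under Jan20 the PIGR difference was -0.59 (2 against 2 cows, exact p = 0.667, smallest possible 0.333) and under Jun20 it was -0.86 (6 against 3 cows, exact p = 0.512, smallest possible 0.0119). The CD79B difference was 1.05 under Sep19, 0.024 under Jan20 and 0.50 under Jun20, with exact permutation p of 0.267, 0.667 and 0.50. The group difference of the 5 tested members was also set against itself between the early tags (Sep19 to Dec19, 13 LOW RFI and 4 HIGH RFI cows) and the late tags (Jan20 to Jun20, 9 LOW RFI and 13 HIGH RFI cows). No member passed the test of this interaction (limma p 0.355 to 0.592, with 0 of 10636 genes called).

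**Figure D3:**
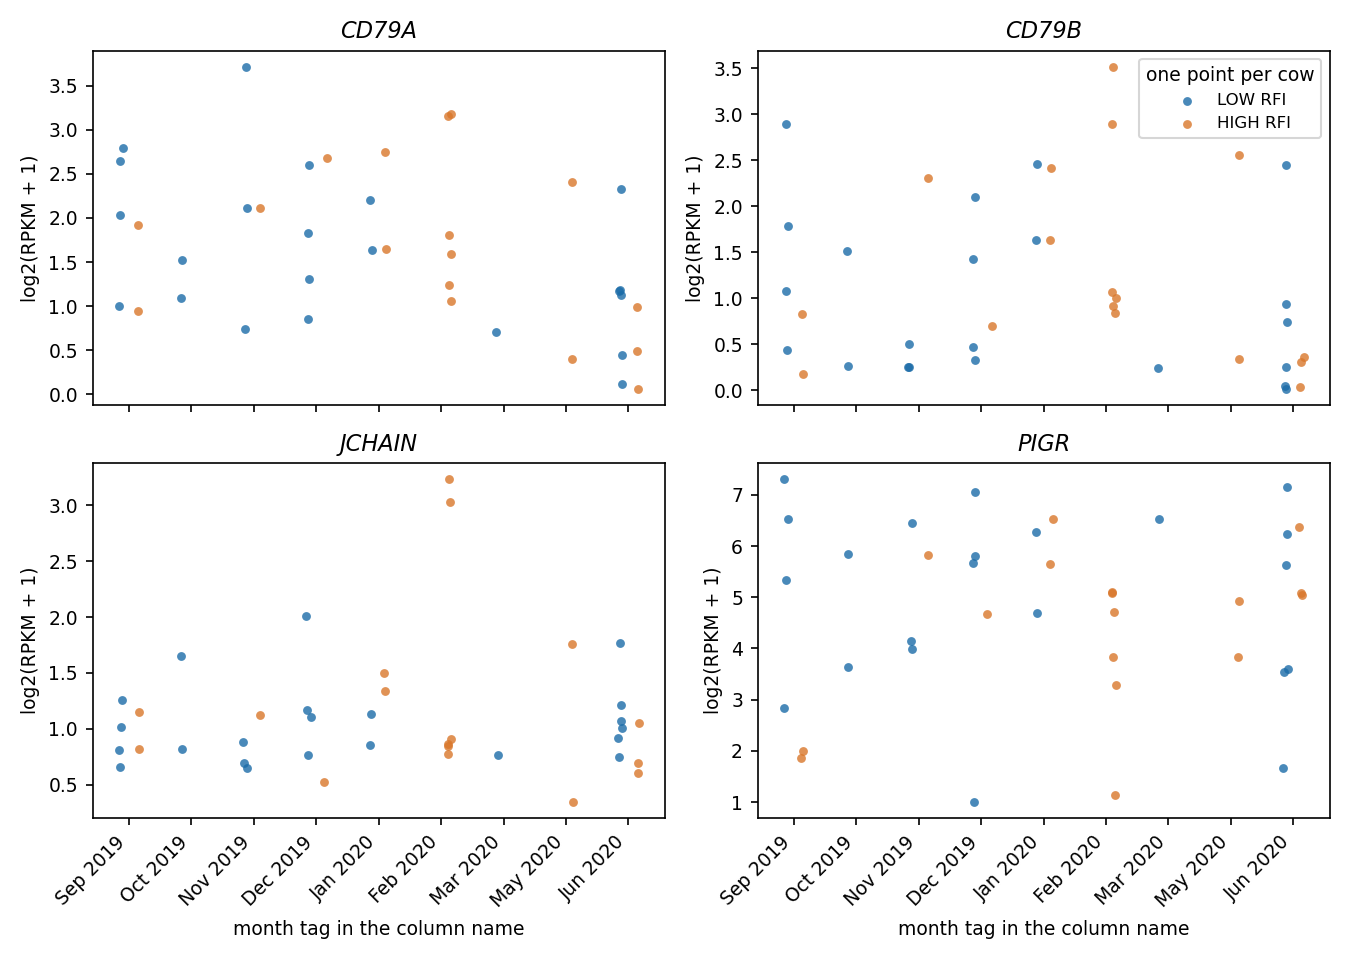
Levels of CD79A, CD79B, JCHAIN and PIGR by month tag on the log2(RPKM + 1) axis, 1 point per cow, LOW RFI (blue) left of HIGH RFI (orange). The Feb20 tag holds HIGH RFI cows alone, among them the 2 with the highest JCHAIN, 8.38 and 7.17 RPKM. Under Sep19 the 4 LOW RFI cows lie above the 2 HIGH RFI cows for PIGR, a separation that was not counted over all genes.

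Over the cows the members varied in sets. Of the 21 pairs of genes, 11 were correlated over the 39 cows at an adjusted p under 0.05 (permutation test, 100000 resamples, two-sided, Benjamini-Hochberg over the 21 pairs), 10 of them positively. These 10 are all the pairs among CD79A, CD79B, POU2AF1, JCHAIN and MZB1. PIGR passed with none of those 5, at r from -0.0058 to 0.13. DERL3 did not pass with any of them either (r 0.14 to 0.26). In the 17 cows with early tags (Sep19 to Dec19) 1 of the 21 pairs passed, against 11 in the 22 cows with late tags. In the 17 HIGH RFI cows alone 11 passed and in the 22 LOW RFI cows alone 8.

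CD79B and POU2AF1 were the tightest pair, with a Pearson r of 0.96 and a Spearman rho of 0.97 (permutation p = 1e-05 each, the smallest that 100000 resamples can give). The relation was as tight without the 2 cows farthest in CD79B (r = 0.96), and in all alternatives r lay between 0.94 and 0.99, including within each group and within the early and the late tags. The pair tracked each other from near 0 in HIGH RFI 17 up to HIGH RFI 6.

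JCHAIN and MZB1 had an r of 0.79 (permutation p = 2e-05) and a rho of 0.55 (p = 0.00036), and r was 0.64 without the 2 cows farthest in JCHAIN. JCHAIN also went with POU2AF1 (r = 0.76, rho = 0.68, permutation p = 1e-05 each) and CD79B (r = 0.75, rho = 0.69, permutation p = 1e-05 each). Without the farthest 2 cows these were 0.61 and 0.71. HIGH RFI 6 and HIGH RFI 9 are high in all 4 genes.

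CD79A, the partner chain of CD79B in the receptor complex, had a lower r with it than POU2AF1 had, a difference that was not tested. The r of CD79A with CD79B was 0.66 and rho 0.68 (permutation p = 1e-05 each), and r was 0.76 without the 2 cows farthest in CD79A. It was 0.29 in the 17 cows with early tags (permutation p = 0.257, not passing) and 0.95 in the 22 cows with late tags, a gap that was not tested. CD79A and MZB1 had an r of 0.70 and a rho of 0.86, CD79A and POU2AF1 an r of 0.69 and a rho of 0.73 (permutation p = 1e-05 each). The weakest of the 10 was CD79A with JCHAIN (r = 0.52, permutation p = 0.00037, rho = 0.42, p = 0.00734), which was 0.55 without the farthest 2 cows, 0.25 in LOW RFI cows alone and -0.0037 with early tags.

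The ratio of the chains shows where they part. CD79A exceeded CD79B in 31 of 39 cows, with a median ratio of 1.75 and a range of 0.772 to 64.3. In 10 cows the ratio was above 4, 7 of them LOW RFI and 3 HIGH RFI, and 7 of the 10 carried early tags. Of all 39 cows, 22 were LOW RFI and 17 carried early tags. Some ratios above 4 rest on few CD79B reads, 1 in LOW RFI 20 (ratio 44.9), 18 in HIGH RFI 2 and 25 in LOW RFI 12. LOW RFI 12 had the highest CD79A of all cows, 12.1 RPKM, with a CD79B of 0.189 RPKM, which ranked 34 of 39. HIGH RFI 2 had 2.78 RPKM of CD79A against 0.129 RPKM of CD79B, and HIGH RFI 4 had 5.43 against 0.617 RPKM.

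**Figure D4:**
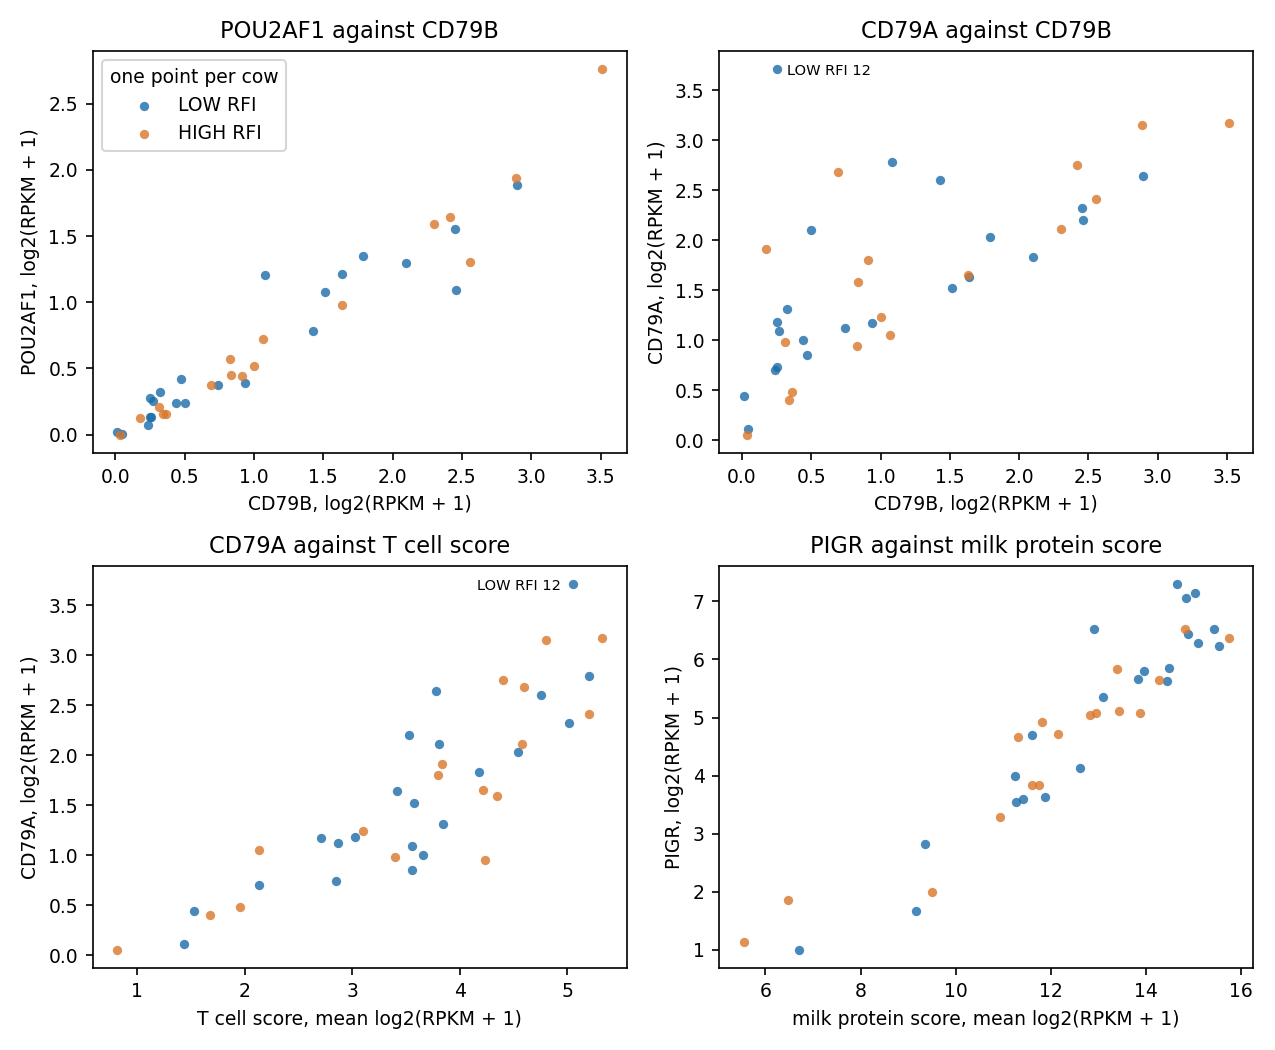
POU2AF1 and CD79A against CD79B, CD79A against the T cell score and PIGR against the milk protein score over the 39 cows, 1 point per cow, LOW RFI in blue and HIGH RFI in orange, on log2(RPKM + 1) axes; scores are means over a marker list. POU2AF1 follows CD79B (r = 0.96) and PIGR follows the milk protein score (r = 0.94), while LOW RFI 12 is the highest cow in CD79A with a low CD79B and lies near the upper end of the T cell score.

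Cell type scores, the mean log2(RPKM + 1) over the tested genes of a marker list, were set against the members in 42 relations, of which 14 passed (permutation test, Benjamini-Hochberg over the 42). CD79A was correlated with the T cell score at r = 0.86 and rho = 0.86 (permutation p = 1e-05 each), and at 0.86 without the 2 cows farthest in CD79A. The r of CD79A with the T cell score was 0.78 with early tags, 0.46 in the 6 cows under Sep19, 0.93 with late tags and 0.77 after CD79B was taken out of both. After the T cell score was taken out of both CD79A and CD79B, their own r was 0.36 (permutation p adjusted over the 21 pairs 0.0588), which did not pass. By the median, T cell markers summed to a higher level than the B cell list. The 20 genes of the B cell list besides members had a median sum of 120.5 RPKM in LOW RFI cows and 198.9 RPKM in HIGH RFI cows. That sum is not a level of B cells alone. The highest means in it were LYN (44.2 RPKM), CD37 (32.2) and SYK (29.7), whose r with CD79B was 0.096, 0.37 and 0.15. MS4A1, with an r of 0.95, had a mean of 1.08 RPKM. Summed over the 15 T cell markers, the lowest, median and highest level was 31.3, 210.9 and 952.6 RPKM in LOW RFI cows, against 13.4, 328.8 and 767.6 RPKM in HIGH RFI cows. All 15 passed the filter. Whether T cells take part in the CD79A level was not tested.

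POU2AF1, CD79B, MZB1 and JCHAIN also went with the T cell score, at r of 0.64, 0.60, 0.60 and 0.50 (permutation p 2e-05 for POU2AF1, 4e-05 for CD79B, 0.00013 for MZB1 and 0.00113 for JCHAIN). With early tags alone none of the 4 passed, at 0.33, 0.25, 0.42 and 0.040. CD79A relative to the T cell score was -1.95 ± 0.541 in LOW RFI cows (SD, n = 22) and -2.002 ± 0.665 in HIGH RFI cows (SD, n = 17), a difference of 0.052 (SE 0.20, permutation p = 0.786, two-sided).

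DERL3, which passed with none of CD79A, CD79B, POU2AF1, JCHAIN and MZB1, passed with other scores. Its r was 0.70 with the macrophage score (rho 0.59, permutation p = 1e-05 and 0.00013), 0.66 with the plasmacytoid dendritic cell score (rho 0.56, p = 1e-05 and 0.00028) and -0.68 with the milk protein score (rho -0.55, p = 1e-05 and 0.00042). Without the 2 cows farthest in DERL3 these were 0.62, 0.61 and -0.59. The plasmacytoid dendritic cell score rests on 8 tested genes of a list of 14. Their r with DERL3 ran from -0.60 for IL3RA and 0.20 for SPIB up to 0.74 for UNC93B1. With the neutrophil score r was 0.17 and with the T cell score 0.33, and neither passed (permutation, adjusted p = 0.565 and 0.106). The relation with the macrophage score was 0.31 after quantile normalization and no longer passed. The summed macrophage markers had a lowest, median and highest level of 205, 7382 and 26133 RPKM in LOW RFI cows, against 252, 8558 and 20423 RPKM in HIGH RFI cows, and their part in the DERL3 level was not tested. DERL3 was also correlated with many genes at once: the median r over all tested genes was 0.50 for DERL3, -0.51 for PIGR, and between 0.11 and 0.17 for CD79A, CD79B, JCHAIN, MZB1 and POU2AF1. Within the plasma cell list its r was 0.80 with PDIA4, a disulfide isomerase, 0.66 with TXNDC5 and 0.58 with XBP1. In the same list r was -0.48 with ELL2, -0.33 with SSR4 and -0.076 with FKBP11. These values are a description, and that of XBP1 lies near the median of 0.50 over all tested genes.

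PIGR followed the transcripts of the milk proteins, which secretory epithelium makes. Its r with the milk protein score was 0.94 and its rho 0.93 (permutation p = 1e-05 each), it was 0.92 without the 2 cows farthest in PIGR, and it lay between 0.86 and 0.98 in all alternatives. With the mammary epithelium score, of keratin, junction and other epithelial genes, r was 0.36 (rho 0.31, permutation p = 0.0249, adjusted 0.0697), which did not pass. It passed in 3 alternatives, among them quantile normalization at 0.61, and r lay between 0.29 and 0.92 in all. Among the genes of the score r with PIGR ran from -0.28 for KRT18 to 0.93 for ELF5. PIGR was lower where markers of 3 leukocyte lists were higher, with r of -0.70 for macrophage, -0.52 for plasmacytoid dendritic cell and -0.43 for neutrophil scores (permutation p = 1e-05, 0.00084 and 0.00631, rho -0.80, -0.63 and -0.53). All 3 passed without the 2 farthest cows, at -0.68, -0.52 and -0.48, but the relation with the neutrophil score did not pass in 9 other settings, among them quantile normalization (r = -0.37) and either group alone. The median r of PIGR over all tested genes was -0.51, close to its r with the plasmacytoid dendritic cell score and stronger than that with the neutrophil score. Among the 8 genes of the plasmacytoid dendritic cell score r with PIGR ran from -0.78 for TLR7 to 0.71 for IL3RA. With the T cell score the r of PIGR was -0.046 (permutation, adjusted p = 0.964). Milk protein genes summed to a lowest, median and highest level of 1072, 119876 and 444345 RPKM in LOW RFI cows, against 474, 41803 and 543189 RPKM in HIGH RFI cows, and since RPKM are shares of a library, such a share bears on every other gene.

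PIGR and DERL3 ran in opposite directions over cows, at r = -0.58 (permutation p = 0.00017) and rho = -0.42 (p = 0.00835), and r was -0.50 without the 2 cows farthest in DERL3. After quantile normalization r was -0.21 and did not pass. The 2 cows with the lowest PIGR, LOW RFI 13 at 1.01 RPKM and HIGH RFI 12 at 1.21 RPKM, had the 2 highest DERL3 levels, 10.8 and 13.1 RPKM.

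PIGR relative to the mammary epithelium score was -0.018 ± 1.73 in LOW RFI cows (SD, n = 22) and -0.39 ± 1.43 in HIGH RFI cows (SD, n = 17), a difference of 0.38 (SE 0.51, permutation p = 0.473, two-sided). Relative to the milk protein score the difference was -0.35 (SE 0.37, permutation p = 0.338). Neither was larger than the spread between cows.

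**Figure D5:**
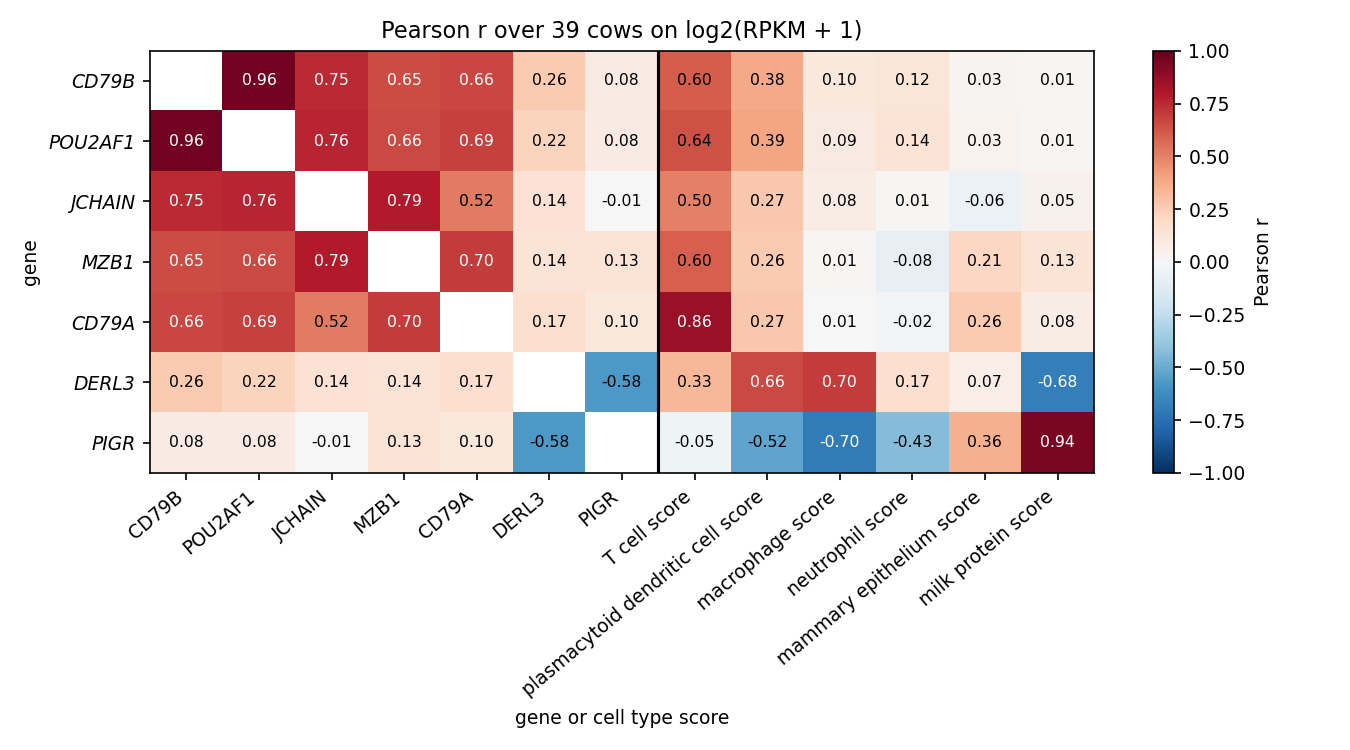
Pearson r over the 39 cows on log2(RPKM + 1) between the 7 genes, left of the line, and of each gene with 6 cell type scores, right of it, from blue (-1) to red (1). CD79B, POU2AF1, JCHAIN, MZB1 and CD79A form a positive block, CD79A stands out with the T cell score at 0.86, and DERL3 and PIGR have opposite signs with the macrophage and milk protein scores.

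The genes most alike each member were sought among all tested genes by Pearson r over the 39 cows. For CD79A they were IL16, a cytokine that attracts T cells (r = 0.93), RGS3 (0.91), SLA2, an adaptor that dampens antigen receptor signalling (0.90), SH2D2A, a T cell adaptor (0.90), and CD247, the zeta chain of the T cell receptor (0.90). CD79B ranked 270 for CD79A. For CD79B the 5 closest were all features known by an Ensembl identifier alone, at r up to 0.96, and the first with symbols were EHD3 (0.93), BOLA-DOB, a class II chain of the DO molecule (0.86), and FCMR, the receptor for IgM (0.85). For POU2AF1 the closest gene was CD79B, followed by 4 Ensembl identifiers. For MZB1 it was JCHAIN, with FCMR at 0.74 the next with a symbol. For JCHAIN the closest with a symbol was CD79B, behind 2 Ensembl identifiers, then EHD3 (0.71) and FCMR (0.68).

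DERL3 was closest to RUSF1 (0.89), DPAGT1, the enzyme that starts N-glycan synthesis (0.89), LMF1, a lipase maturation factor of the endoplasmic reticulum (0.88), PCK2 (0.88) and TMEM94 (0.88). PIGR was closest to LPO, the lactoperoxidase of milk (0.97), MUC1, a membrane mucin (0.97), BTN1A1, the butyrophilin of the milk fat globule (0.97), HHIPL2 (0.96) and GLYCAM1, a milk glycoprotein (0.95).

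The neighbours of PIGR on its chromosome, by gene order in RefSeq's ARS-UCD2.0 annotation, are both genes of antibody receptors. FCMR, on one side, varied with CD79B (r = 0.85) and POU2AF1 (0.87), and had an r of 0.091 with PIGR. FCAMR, on the other side, had an r of 0.87 with PIGR and of 0.046 with CD79B. Their median levels were 1.63 and 0.549 RPKM. No overlap of the 3 genes was annotated.

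Beyond CD79A and CD79B, the B cell list held 20 genes, which fell into sets by their r with CD79B over the cows. The genes TNFRSF13C (the BAFF receptor, r = 0.98), MS4A1 (0.95), CD22 (0.92), PAX5 (0.90), VPREB3 (0.90), CXCR5 (0.88) and FCRLA (0.85), 7 in all, had an r of at least 0.85, a limit chosen after the values were seen. All 7 lay below the filter, at means of 0.197 to 1.08 RPKM, and all 7 were closer to CD79B than to CD79A. The 6 genes CD72, SYK, BLNK, BTK, LYN and CR2 had an r under 0.3 with CD79B. Among those 6, LYN, SYK, BTK and BLNK, kinases and an adaptor downstream of the receptor that myeloid cells also make, were at 44.2, 29.7, 20.7 and 15.5 RPKM.

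No gene of the lists around the members passed the group comparison, against 0.0% of all genes. Over all tested genes 73.0% had a negative difference, 51.6% with the month tag and 46.9% with quantile normalization, and 5.95% had an unadjusted p under 0.05. Of the 10 tested B cell genes besides members, 10 had a negative difference and 2 an unadjusted p under 0.05, with a median of -0.41 against -0.12 over all genes. With the month tag in the model 6 of these 10 were negative, at a median of -0.12. With quantile normalization 10 of the 10 were negative, at a median of -0.29, against 46.9% of all genes. The 2 of highest level, LYN and CD37, differed by -0.58 (SE 0.36) and -0.42 (SE 0.35). Of 17 plasma cell and secretion genes 13 were negative and 4 positive, at a median of -0.11, which turned to 8 negative and 9 positive with quantile normalization. SSR4, a subunit of the translocon, was at 723 ± 355 RPKM in LOW RFI cows (SD, n = 22) and 577 ± 282 RPKM in HIGH RFI cows (SD, n = 17), and XBP1 at 166 ± 61.2 and 163 ± 42.3 RPKM.

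The other genes of antibody transport did not follow 1 direction. Of 11 tested, 5 were negative and 6 positive, at a median of 0.082, and 3 were negative with quantile normalization. FCGRT, the heavy chain of the neonatal Fc receptor that binds IgG, was at 115 ± 72.7 RPKM in LOW RFI cows (SD, n = 22) and 139 ± 65.9 RPKM in HIGH RFI cows (SD, n = 17), and its partner B2M at 1285 ± 633 and 1598 ± 654 RPKM. Over the cows FCGRT had an r of -0.58 with PIGR. AP1M2 and RAB25 and RAB17, sorting and recycling genes of polarised epithelium, had an r with PIGR of 0.82, 0.77 and 0.79. RAB3D, MYO5B and YES1 of the same list had 0.63, 0.55 and 0.36. EXOC4, RAB11A, RAB5A and B2M went the other way, at -0.73, -0.62, -0.57 and -0.43, where the median r of PIGR over all tested genes was -0.51. Of 14 tested genes of pathways known to raise PIGR in other settings, 12 were negative, against 73.0% of all genes. With the month tag in the model 7 of the 14 were negative, against 51.6%, and with quantile normalization 12, against 46.9%. IFNGR2 differed by -0.34 (SE 0.23) and TNFRSF1A by -0.60 (SE 0.39).

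Of 9 tested genes for the recruitment and survival of plasma cells, 8 were negative and 2 had an unadjusted p under 0.05, against 73.0% and 5.95% of all genes. With the month tag in the model 5 of the 9 were negative, against 51.6%, and with quantile normalization 8, against 46.9%. CXCR4, the homing receptor for CXCL12, differed by -0.44 (SE 0.39), and SELPLG, a selectin ligand, by -0.56 (SE 0.41). CCL28, the epithelial chemokine that draws antibody-secreting cells to mucosae and glands, was below the filter at a mean of 1.03 RPKM in LOW RFI cows and 0.625 RPKM in HIGH RFI cows, and had an r of 0.80 with PIGR. Its receptor CCR10 was at 0.173 and 0.180 RPKM. The 10 partners of DERL3 in degradation at the endoplasmic reticulum were all tested and all negative, at a median of -0.15, but 4 of 10 were negative with quantile normalization. HSPA5, the chaperone BiP, was at 230 ± 122 RPKM in LOW RFI cows (SD, n = 22) and 250 ± 114 RPKM in HIGH RFI cows (SD, n = 17). SYVN1, the ubiquitin ligase of that pathway, had the closest r with DERL3 of the list, 0.85.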

How the data were processed

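The data are 1 table of 21661 features in 39 libraries, 1 per cow, and cows are the replicates. The authors deposited RPKM, per the file headers. Per the submitters' processing notes the genome build was ARS-UCD1.2. Not given in the sources used here are the aligner, the counter, the annotation and the strand setting, so a gene and its antisense partner cannot be told apart. RefSeq's ARS-UCD2.0 table gave names and gene order only, and all 7 symbols matched it. Rows sharing a symbol were summed to 21590 genes.

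Whole reads were recovered from the steps of the RPKM values within 0.02 reads for all 19616 features above 0, and were used for depths and for limma-voom as an alternative. Groups were compared by limma-trend (limma 3.58.1, R 4.3.3, robust) on log2(RPKM + 1), a scale that understates changes of low genes, among genes that reached 1 RPKM in 17 or more cows, with Benjamini-Hochberg over all genes tested and a threshold of 0.05. The filter of 0.1 RPKM served POU2AF1 and MZB1. Correlations used permutation with 100000 resamples in Python 3.11.15. The scripts were tested on simulated data. Floors of 3 reads and intervals of 95% cover counting or cow-to-cow error only.

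The members and 13 gene lists were chosen with earlier results of these data known. Text names the members, for each the 5 tested genes of highest r, and for each list the genes that pass or the 2 of highest mean level, and others only where said or as the closest r or a marker, chosen after their values were seen. One marker of the B cell list is not reported here. Alternatives were other scalings, pseudocounts and filters, covariates, month tags, libraries left out and limma-voom.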

Additional observations from a re-analysis of the deposited data

How the results depend on the processing

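No member passed an adjusted p of 0.05 in any alternative. The CD79A difference became positive with quantile normalization (0.090), rescaling without milk proteins (0.042), month (0.16) and the T cell score (0.012). With month, CD79B, JCHAIN, MZB1 and POU2AF1 were 0.22, 0.082, 0.067 and 0.13, with early tags alone 0.024, 0.13, 0.096 and 0.063, where PIGR was 1.46 and DERL3 -0.52, and MZB1 was 0.0070 with quantile normalization. Leaving out 1 cow at a time gave -0.17 to 0.021 for CD79A, -0.37 to -0.14 for CD79B, -0.22 to -0.041 for JCHAIN, -0.083 to 0.017 for MZB1, -0.23 to -0.048 for POU2AF1, -0.27 to -0.093 for DERL3 and 0.43 to 0.83 for PIGR. PIGR relative to epithelium ranged from 0.23 to 0.57 and CD79A relative to T cells from -0.028 to 0.13.

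Over all genes, 0 passed except with limma-voom with quality weights (1968, or 18.5%, none a member). Genes at an unadjusted p under 0.05 numbered 633, and 349 with a pseudocount of 0.1, 1270 unfiltered, 1012 at 0.1 RPKM, 9 with month, 307 with epithelium and neutrophil scores, 276 with the milk protein score, 106 without the 8 marked libraries, 1048 without the 4 least correlated, 252 and 3531 with limma-voom without and with weights, 81 with late tags, and 377 to 2218 without 1 cow.

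Correlated pairs of members numbered 11, against 1 with early tags, 1 under Sep19 and 0 under Feb20. Of relations with scores 14 passed, against 9 in LOW RFI, 7 in HIGH RFI, 6 with early tags, 0 under Sep19 and under Feb20, 8 under Jun20 and 8 after CD79B, where fewer cows or relations were tested. The r of CD79A with JCHAIN was -0.0037 with early tags, and that of JCHAIN with the T cell score -0.055 under Sep19. Covariates with milk protein or T cell scores, the year tags, single months and residuals were chosen after seeing the data. The causes were not tested. No paired analysis was possible because the cow numbers are names in accession order and pair no animals. Depth limits MZB1 most, and no member passed a correlation with mapped reads (permutation, adjusted p of 0.715 or more).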

Other observations

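The marker lists behind the cell type scores held no gene that passed the group comparison (limma, adjusted p under 0.05). Of 11 tested neutrophil genes 11 had a negative difference, LOW RFI minus HIGH RFI, at a median of -0.93, and 3 had an unadjusted p under 0.05, against 73.0% and 5.95% of all genes. With the month tag in the model 9 of them were negative, at a median of -0.20, against 51.6% of all genes. With quantile normalization 11 of the 11 were negative, at a median of -0.76, against 46.9% of all genes. The 2 of highest level, S100A12, an antimicrobial calcium-binding protein, and the chemokine receptor CCR1, differed by -0.53 (SE 0.50) and -0.76 (SE 0.51). Of 14 macrophage genes 14 were negative at a median of -0.44, 14 with quantile normalization and 9 with the month tag. The cathepsins CTSB and CTSD differed by -0.44 (SE 0.46) and -0.37 (SE 0.47).

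Of 15 T cell genes 11 were negative and 4 positive, but 7 negative and 8 positive with quantile normalization and 5 negative and 10 positive with the month tag. Over all genes 73.0% were negative, 46.9% with quantile normalization and 51.6% with the month tag. The receptor chains CD3E and CD3D differed by 0.046 (SE 0.44) and 0.021 (SE 0.44). Of 8 plasmacytoid dendritic cell genes 7 were negative, 7 with quantile normalization and 3 with the month tag. CLEC4C and LILRA4, which mark these cells in humans, matched no row by name. UNC93B1 and IRF7, of highest level in that list, differed by -0.27 (SE 0.36) and -0.31 (SE 0.29). With the month tag the differences of S100A12, CTSD, UNC93B1 and IRF7 were 0.025, 0.046, 0.068 and 0.027.

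Of 16 mammary epithelium genes 15 had a positive difference, at a median of 0.24, where 73.0% of all genes were negative. With quantile normalization 16 were positive, where 46.9% of all genes were negative, and with the month tag 14, where 51.6% were. The keratins KRT19 and KRT7 differed by 0.39 (SE 0.37) and 0.18 (SE 0.33). All 7 milk protein genes were positive at a median of 1.002, also with quantile normalization and with the month tag. CSN2, beta-casein, differed by 0.96 (SE 0.77) and PAEP, beta-lactoglobulin, by 1.06 (SE 0.76).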
